A study of Mus musculus with 6 samples.

Results

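The 10 genes described here belong to inflammasome signalling, pyroptosis and neutrophil extracellular trap (NET) release, and were followed in mouse neutrophils sorted by their membrane potential after a calcium stimulus. They are the peptidylarginine deiminases Padi4 and Padi2, the sensors Nlrp3, Nlrc4 and Aim2, the adaptor Pycard, the caspases Casp1 and Casp4, and the gasdermins Gsdmd and Gsdme. The set was taken by name, all 10 were found among the 41388 genes measured, and 8 of them passed the filter on low counts, as did 9971 genes in all. Padi2 and Nlrc4 did not pass it. RNA was sequenced from 3 libraries of depolarized and 3 libraries of polarized neutrophils from the bone marrow of C57BL/6 mice. Cells of both populations carried the voltage dye DiBAC4(3) at 250 nM, a probe that accumulates in depolarized cells, and both had received the calcium ionophore ionomycin at 100 nM. In each case 20000 cells were collected at 2 to 4 minutes after the stimulus, so the comparison is between cells that did and did not depolarize, and unstimulated cells were not analysed here. How old the mice were, and how many stand behind a library, is not stated in the labels. Each depolarized library shares a replicate code with 1 polarized library, which makes 3 pairs, called A, B and C.

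An inflammasome forms when a sensor such as NLRP3, NLRC4 or AIM2 meets its trigger and recruits caspase-1, mostly through the adaptor ASC, the product of Pycard. Caspase-1 matures interleukin-1β and cleaves gasdermin D, whose freed amino-terminal fragment forms pores in membranes. Mouse Casp4 encodes caspase-11, which binds cytosolic lipopolysaccharide and also cleaves gasdermin D, and gasdermin E is a further pore-former of the same family. PAD4, the product of Padi4, needs calcium to convert histone arginines to citrulline, a step that loosens chromatin in calcium-driven NET release, and ionomycin is widely used to elicit it in neutrophils.

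Total counts ran from 16904969 to 20381489 per library, and 15527 to 16005 genes were detected. The neutrophil marker S100a8 stood at 74182 to 85447 CPM (counts scaled to the library total) in depolarized cells and 84267 to 105753 CPM in polarized cells. Of 12 marker lists, that of the early, granule-making neutrophil stage held the most called genes. The lists were chosen with earlier results of these data known, so this count is a description only. Of its 10 genes 7 were called lower in depolarized cells, beside 0.241% of all genes. The summed level of all 10 was 231 to 258 CPM in depolarized and 399 to 1195 CPM in polarized libraries. Of 8 macrophage markers none was called, but the summed level was 375 to 426 CPM in depolarized and 316 to 323 CPM in polarized libraries, carried by Cd68 and Adgre1, while C1qa stayed between 0.491 and 0.651 CPM in depolarized and between 1.06 and 1.35 CPM in polarized cells. The 8 monocyte markers summed to 817 to 903 CPM in depolarized and 895 to 1175 CPM in polarized libraries, with Csf1r at 157 to 168 CPM in depolarized and 102 to 112 CPM in polarized cells and Ccr2 at 0 to 0.532 CPM in depolarized and 1.12 to 1.55 CPM in polarized cells. On the other lists Camp and Ltf among neutrophil markers and Nkg7 among T and NK cell markers were lower in depolarized cells, and no other marker on them was called. Eosinophil markers summed to 60.9 to 207 CPM in depolarized and 51.6 to 487 CPM in polarized libraries. The part of these differences in the values below was not tested. In RNA from sorted pools, fewer cells of a kind and less RNA per cell cannot be told apart.

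None of the 8 members that could be tested differed between depolarized and polarized cells by edgeR's quasi-likelihood test at an adjusted p under 0.05, a threshold that 0.321% of all 9971 genes passed. At an unadjusted p under 0.05 the count was 1 of 8, Nlrp3, where 6.58% of all genes passed, and DESeq2 called 0 of the members, against 0.338% of all genes. Fitted log2 fold changes, depolarized minus polarized, ran from -0.43 for Pycard to 0.50 for Aim2, with 4 members above 0 and 4 below. Their median was -0.02, beside -0.002 over all genes tested. Fitted values and differences within pairs are on TMM-scaled values, which also correct for the composition of each library, so they need not equal the ratio of the CPM printed beside them. The sign of every member in every pair was the same on the deposited CPM. The intervals below show how large a difference each gene could still have.

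The clearest contrast among the members was one of level. Levels between genes are compared as RPKM, which is CPM per kilobase of the listed gene length, averaged over the 6 libraries. Gsdmd averaged 50.1, Padi4 47.8 and Gsdme 43.0 RPKM, and the ranges of neighbours in this order overlapped (44.7 to 57.9 for Gsdmd, 38.6 to 55.5 for Padi4 and 38.8 to 48.4 for Gsdme). Casp1 came next at 29.0 RPKM, with its highest library at 36.6 RPKM, below the lowest library of Gsdme. Nlrp3 at 23.0, Pycard at 16.3 and Casp4 at 12.2 RPKM followed, each overlapping its neighbour in the order. Aim2 averaged 2.08 RPKM and did not overlap with Casp4. Nlrc4 at 0.0136 and Padi2 at 0.00347 RPKM were at the edge of detection.

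The listed length adds up the exons of all transcripts of a gene, which matters for 4 members. It is 7375 bases for Gsdme, whose longest coding transcript has 2133 bases, and 4835 against 2316 for Padi4, 3710 against 1435 for Casp4 and 3501 against 2079 for Aim2. Per kilobase of the longest coding transcript, a measure chosen after the data were seen, Gsdme averaged 149 CPM, Padi4 99.8 CPM and Gsdmd 50.1 CPM, with no overlap between these 3. Casp4 moved up to 31.5 CPM per kilobase, within the range of Casp1. The order among the gasdermins, Padi4 and the caspases therefore depends on which length is used, whereas the places of Aim2, Nlrc4 and Padi2 at the bottom do not.

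**Figure D1:**
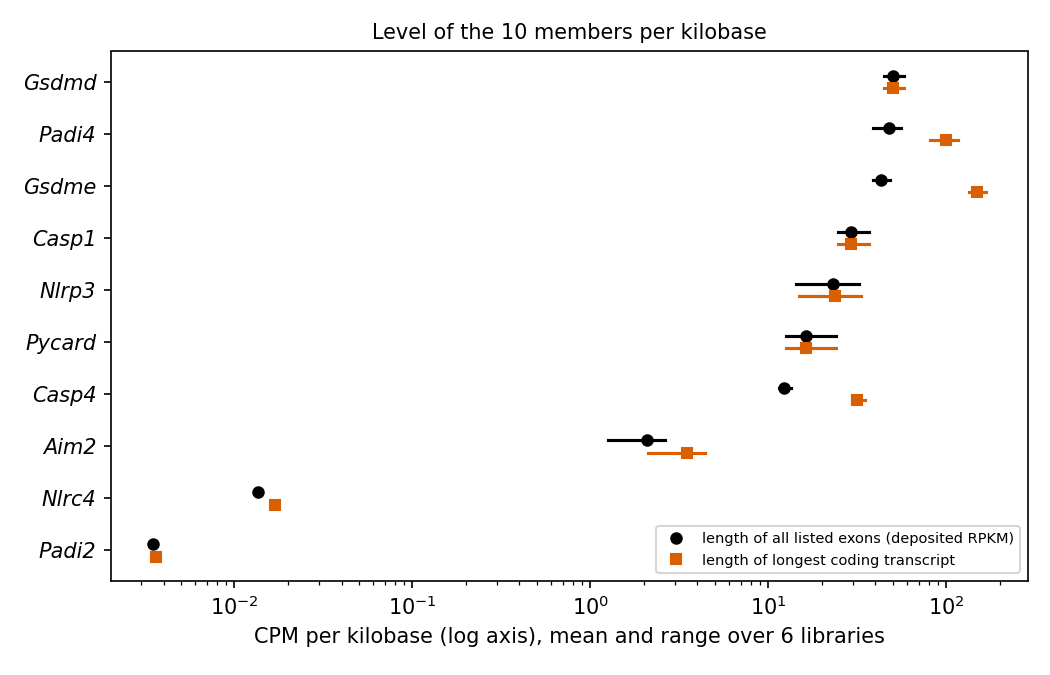
Level of the 10 members in CPM per kilobase on a log axis, as mean (symbol) and range over the 6 libraries (line), with the length of all listed exons (circles) and of the longest coding transcript (squares); Nlrc4 and Padi2 have no line because some libraries had 0 counts. Gsdmd, Padi4 and Gsdme lie between 43.0 and 50.1 by the listed length, and Gsdme stands at 149 by the coding transcript.

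Padi4 and Padi2 both lie on chromosome 4 and point away from each other. Padi4 lies on the minus strand at chr4:140745865-140774236 and Padi2 on the plus strand at chr4:140906344-140952586 (GRCm38), 132107 bases apart. Because they stand at opposite ends of the levels, the stretches just before their first annotated exons are shown, from the RefSeq promoter table for GRCm38.p6, 5′ to 3′ on the strand of each gene. Capitals mark matches to the motifs named below.

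Padi4 promoter, chr4:140774237-140774453, minus strand: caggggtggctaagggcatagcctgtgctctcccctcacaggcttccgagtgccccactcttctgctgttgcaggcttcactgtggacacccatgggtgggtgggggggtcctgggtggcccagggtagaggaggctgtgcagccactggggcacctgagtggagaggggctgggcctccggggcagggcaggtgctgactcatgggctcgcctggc

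Padi2 promoter, chr4:140906110-140906343, plus strand: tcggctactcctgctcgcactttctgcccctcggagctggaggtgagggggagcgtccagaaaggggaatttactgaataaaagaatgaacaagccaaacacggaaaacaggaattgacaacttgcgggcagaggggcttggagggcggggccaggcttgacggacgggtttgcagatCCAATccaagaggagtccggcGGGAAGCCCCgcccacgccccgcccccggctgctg

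In all 6 motifs were searched on both strands in windows of 250 bases before to 50 bases after the start. These were the TATA box TATAAA (in 13.6% of 32544 windows), CCAAT (37.4%), the PU.1 core GAGGAA (28.1%), the C/EBP pattern TTGCNNAA (10.8%), the NF-κB consensus (5.84%) and the interferon element (2 runs of GAAA set 2 bases apart, 3.45%). The Padi2 window held 1 CCAAT and 1 NF-κB match and 22 CG dinucleotides, against a median of 7 over all windows. The Padi4 window held 8 CG dinucleotides and 1 TATAAA, at position -31 from the RefSeq start, which lies in an annotated exon and is not shown. These matches describe the letters only and are neither binding sites nor causes.

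Padi4, the histone-citrullinating enzyme, was measured at 187, 256 and 217 CPM in depolarized cells of pairs A, B and C, against 214, 268 and 245 CPM in polarized cells. Every depolarized library lay below its polarized partner, while the groups overlapped. Pair B was the highest in both groups. The means were 219.9 ± 34.7 CPM in depolarized and 243 ± 27.5 CPM in polarized cells (SD, n = 3 each). The fitted log2 fold change was -0.21 (SE 0.18, 95% interval -0.59 to 0.16, adjusted p = 1 by edgeR). Of all genes 12.1% were likewise below 0 in 3 of 3 pairs (8.91% on the deposited CPM). The difference between the means was smaller than the SD of either group, a comparison that leaves the pairing aside. Within pairs A, B and C the TMM-scaled log2 differences were -0.13, -0.11 and -0.41 (-0.19, -0.07 and -0.18 on the deposited CPM). The fitted value was -0.25 without pair A, -0.27 without pair B and -0.12 without pair C.

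Padi2, a related deiminase found in many tissues, had 2 counts in the depolarized library of pair B and 0 counts in the other 5 libraries. This is under the floor of 3 counts per group, which stands for 0.0531 CPM in depolarized and 0.0536 CPM in polarized cells, so no fold was computed. Such floors cover counting error only. Of its relatives, Padi3 was tested, with 1.99 ± 0.359 CPM in depolarized and 2.40 ± 0.206 CPM in polarized cells (SD, n = 3 each) and an adjusted p of 1. Padi1 had 2 counts and Padi6 had 6 counts over all libraries. By comparison, Padi4 held 12385 counts in depolarized and 13514 counts in polarized cells.

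Among the sensors, Nlrp3 and Aim2 were the members with the highest fitted values, and both were above 0 in 3 of 3 pairs, as were 12.9% of all genes (18.3% on the deposited CPM). Nlrp3 lies at chr11:59541568-59566956 and Aim2 at chr1:173350879-173466040, both on the plus strand. For this reason their promoter stretches are shown in the same way, each up to the first annotated exon in its window. The RefSeq start of Aim2 lies inside the listed gene.

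Nlrp3 promoter, chr11:59541319-59541567, plus strand: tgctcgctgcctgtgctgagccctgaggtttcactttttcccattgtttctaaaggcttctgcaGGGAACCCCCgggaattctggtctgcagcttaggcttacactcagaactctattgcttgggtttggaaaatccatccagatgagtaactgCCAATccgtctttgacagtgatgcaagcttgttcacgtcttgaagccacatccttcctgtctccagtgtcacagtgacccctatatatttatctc

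Aim2 promoter, chr1:173420354-173420570, plus strand: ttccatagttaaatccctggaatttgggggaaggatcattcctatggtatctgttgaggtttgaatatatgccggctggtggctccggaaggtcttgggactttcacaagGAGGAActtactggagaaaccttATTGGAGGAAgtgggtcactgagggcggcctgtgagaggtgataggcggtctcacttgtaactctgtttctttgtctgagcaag

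The Nlrp3 stretch held 1 NF-κB match followed by 1 CCAAT match, while the Aim2 stretch held 2 PU.1 matches and 1 CCAAT match on the opposite strand that overlaps the second of them. Neither window held a TATAAA or an interferon element. Nlrp3 had a second RefSeq window, and the one at the listed gene start was used. The sole motif found in both windows was CCAAT, the most common of the 6.

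Nlrp3, the sensor that responds to potassium efflux and membrane damage, had 132, 84.7 and 109 CPM in depolarized cells of pairs A, B and C, against 105, 58.2 and 71.1 CPM in polarized cells. Pair A was the highest and pair B the lowest in both groups, and the groups overlapped at the polarized library of pair A. Within pairs A, B and C the TMM-scaled log2 differences were 0.39, 0.50 and 0.39, and those of the deposited CPM were 0.32, 0.54 and 0.62. The mean was 108 ± 23.4 CPM in depolarized and 78.2 ± 24.3 CPM in polarized cells (SD, n = 3 each). The fitted log2 fold change was 0.43 (SE 0.17, 95% interval 0.07 to 0.79), with an unadjusted p of 0.0229 and an adjusted p of 0.603 by edgeR. With pair C left out, edgeR called Nlrp3 at a log2 fold change of 0.44 and an adjusted p of 0.00498, in a fit that called 10.1% of all genes. Over all alternatives its adjusted p ran from 0.00498 to 1. Its lowest library held 991 counts, a counting error of 3.18%, far below the 31.1% coefficient of variation among the polarized libraries.

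Aim2, the sensor of cytosolic DNA, was 8.0, 8.65 and 9.17 CPM in depolarized cells, against 7.97, 4.40 and 5.40 CPM in polarized cells. The groups did not overlap, as for 7.28% of all genes in this direction, but the gap was between 8.0 and 7.97 CPM, both in pair A. The fold change was 0.50 on the log2 scale (SE 0.27, 95% interval -0.06 to 1.07, adjusted p = 0.851 by edgeR). After TMM scaling pair A gave 0.07, pair B 0.92 and pair C 0.53, against 0.01, 0.97 and 0.76 on the deposited CPM. The fitted value was 0.73 without pair A, 0.30 without pair B and 0.48 without pair C. A polarized library with 75 counts carries a counting error of 11.5%, the largest among the tested members. A share of 0.628% of its 50-base stretches also occurs in other genes, mainly Gm7871.

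Nlrc4, which joins NAIP receptors that have bound bacterial flagellin or secretion needles, had 1, 2 and 0 counts in depolarized cells and 0, 1 and 2 counts in polarized cells. Both groups thus stood at 3 counts, the floor, and no fold was computed. Its partner Naip2, chosen after its values were seen, reached 67.7 to 77.0 CPM over the 6 libraries, with a log2 fold change of -0.00 and an adjusted p of 1. The other NAIP genes were lower, with Naip5 at 3.57 to 8.08 CPM and Naip6 at 0.887 to 1.67 CPM. Naip1 had 0 counts in depolarized and 1 count in polarized cells. Nlrc4 lies at chr17:74426295-74459108 on the minus strand.

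Pycard, which links sensors to caspase-1, had 21.2, 20.8 and 17.7 CPM in depolarized cells, against 21, 33.9 and 23.2 CPM in polarized cells. The polarized library of pair B stood above all others, pair A hardly differed, and the groups overlapped. Pycard averaged 19.9 ± 1.89 CPM in depolarized and 26.0 ± 6.89 CPM in polarized cells (SD, n = 3 each). The fitted value was -0.43 on the log2 scale (SE 0.21, 95% interval -0.88 to 0.02, adjusted p = 0.793 by edgeR), and -0.68 without pair A and -0.27 without pair B. Pycard, at chr7:127992103-127993867 on the minus strand, shares 34.5% of its exon length with Gm45205 on the opposite strand. The labels do not state whether strand was used in counting, so reads from that transcript could be part of its count.

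Casp1 and Casp4 follow each other on the plus strand of chromosome 9, at chr9:5298517-5307265 and chr9:5308828-5336783, with 1562 bases between them. No 50-base stretch of either occurs in another gene. Casp1, the effector of canonical inflammasomes, was 45.5, 37.7 and 36.9 CPM in depolarized cells, against 42.7, 43.0 and 54.8 CPM in polarized cells. The pairs disagreed, with TMM-scaled log2 differences of 0.15 in A, -0.23 in B and -0.80 in C (0.09, -0.19 and -0.57 on the deposited CPM), and the groups overlapped. The fitted log2 fold change was -0.29 (SE 0.20, 95% interval -0.72 to 0.14, adjusted p = 0.975 by edgeR). It was -0.51 without pair A and -0.04 without pair C.

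Casp4, the sensor and effector of the non-canonical route, was 46.5, 42.6 and 46.7 CPM in depolarized cells, against 43.0, 42.7 and 50 CPM in polarized cells. These libraries lay close together, at 45.3 ± 2.32 CPM in depolarized and 45.3 ± 4.13 CPM in polarized cells (SD, n = 3 each). The log2 fold change was -0.06 (SE 0.18, 95% interval -0.45 to 0.32, adjusted p = 1 by edgeR). Its direction turned to 0.07 without pair C.

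Gsdmd, the pore-former cut by both caspases, lies at chr15:75862339-75867404 on the plus strand. It was 84.0, 103 and 93.2 CPM in depolarized cells, against 80.9, 94.1 and 79.3 CPM in polarized cells. Pair B was highest in both groups, and the groups overlapped. The log2 fold change was 0.07 (SE 0.17, 95% interval -0.29 to 0.43, adjusted p = 1 by edgeR). Its standard deviation over the 6 libraries was 0.0825 in TMM-scaled log2 CPM, the lowest of the 8 tested members, and 0.146 on the deposited CPM, where Casp4 was lowest at 0.0941. Nlrp3 had the highest on both scales, at 0.45 and 0.435.

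Gsdme, the other pore-forming gasdermin measured, lies at chr6:50189369-50263862 on the minus strand. It was 357, 338 and 286 CPM in depolarized cells, against 326, 295 and 299 CPM in polarized cells. The depolarized library of pair C was the lowest of the 6 and that of pair A the highest, so the groups overlapped fully. The log2 fold change was 0.02 (SE 0.18, 95% interval -0.36 to 0.40, adjusted p = 1 by edgeR). Leaving out pair A or pair B turned it to -0.06 or -0.05.

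**Figure D2:**
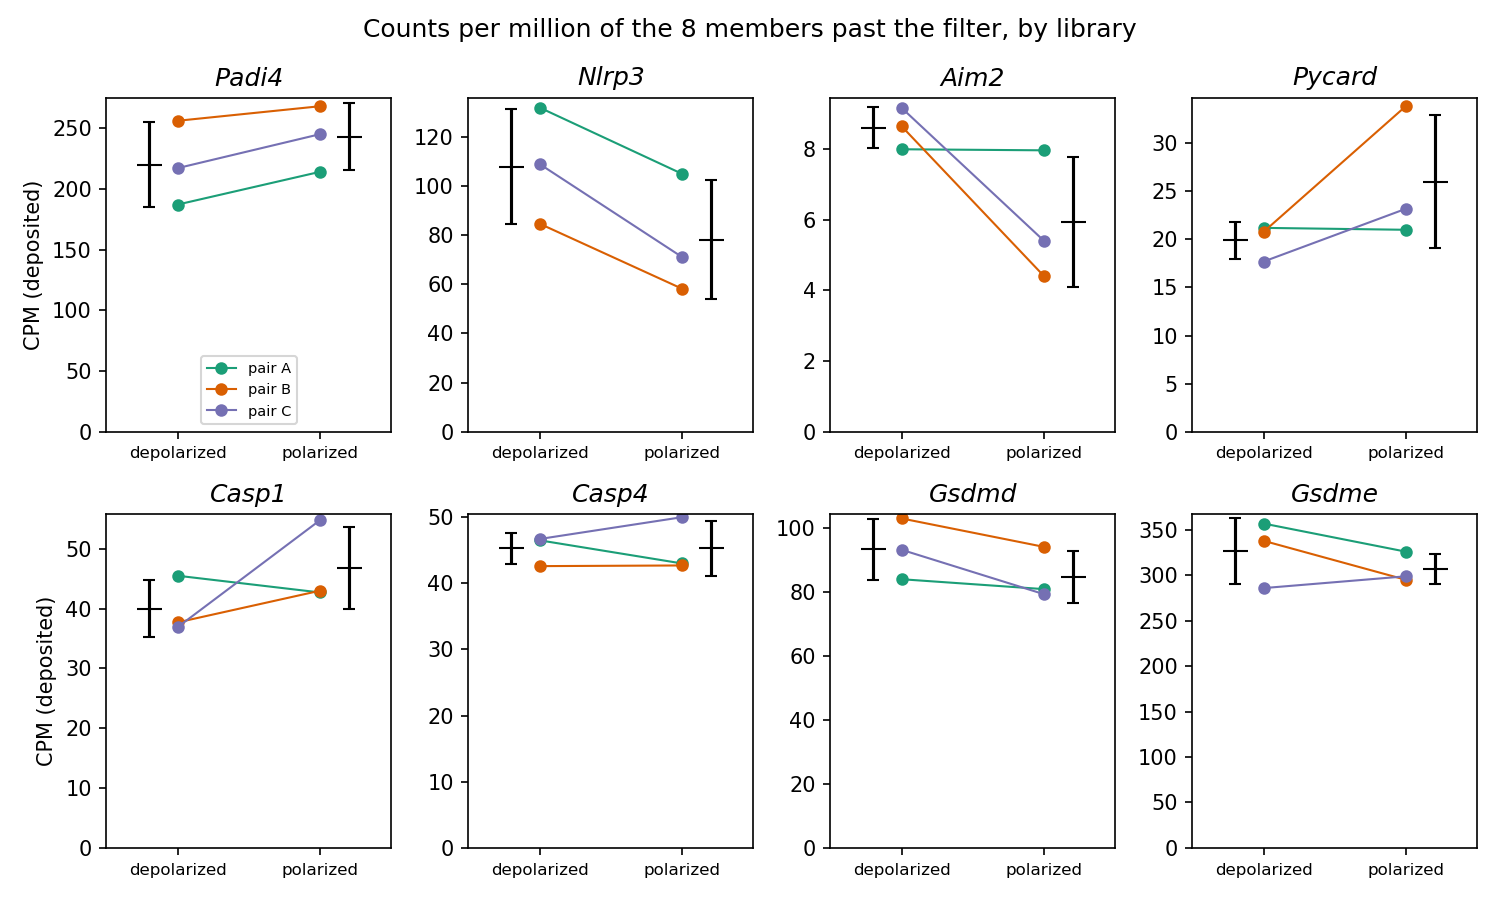
Deposited CPM of the 8 members past the filter in depolarized (left) and polarized (right) libraries, with lines joining the libraries of pair A, B or C and bars for mean ± SD (n = 3). The lines of Nlrp3 run downhill in all pairs, with 132, 84.7 and 109 CPM in depolarized and 105, 58.2 and 71.1 CPM in polarized cells, and those of Padi4 run uphill in all pairs.

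Set side by side, the pairs gave a mixed picture. Nlrp3, Aim2 and Gsdmd were above 0 in all 3 pairs (Gsdmd in pair C by 0.00 to 2 decimals after TMM scaling and by 0.23 on the deposited CPM) and Padi4 was below 0 in all 3, while Pycard, Casp1, Casp4 and Gsdme held both signs. In Pycard, Casp1 and Casp4 pair A was above 0 and pairs B and C below 0. The fitted interval excluded 0 for Nlrp3 alone, before adjustment over all genes.

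**Figure D3:**
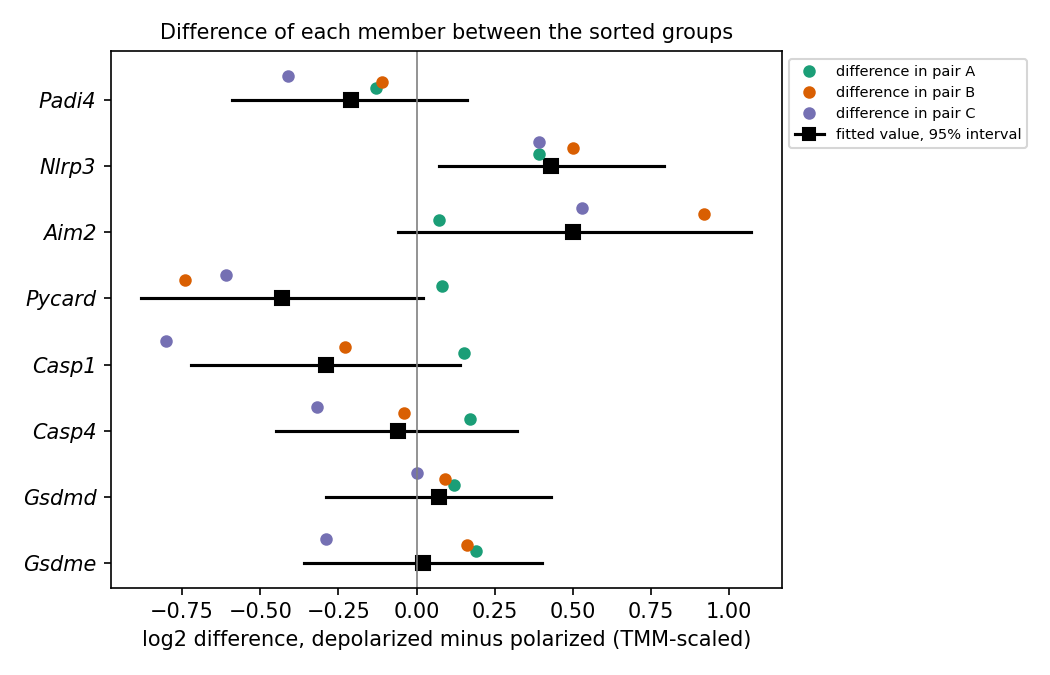
TMM-scaled log2 difference, depolarized minus polarized, of the 8 tested members: squares are the fitted values with their 95% intervals, and dots are the differences within pairs A, B and C. Nlrp3 has its dots at 0.39, 0.50 and 0.39, and Casp1 has them at 0.15, -0.23 and -0.80.

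The pattern of each member over the 6 libraries was also compared with that of about 5178 other genes with a mean log2 CPM of at least 3, as the root mean square distance between centred TMM-scaled log2 CPM values. The nearest gene was Cd37 for Casp4 (0.016 log2 units), Dglucy for Gsdme (0.0306), Tmem219 for Gsdmd (0.0315), Gys1 for Padi4 (0.042) and Ech1 for Casp1 (0.0434). Aim2 was nearest to Ugt1a6a (0.0742), Pycard to Dennd2d (0.109) and Nlrp3 to Adgre1 (0.111). Adgre1 is on the macrophage list above, whose genes did not move together. Adgre1 and Cd68 ran higher and C1qa, C1qb and C1qc lower in depolarized cells, none of them called. The median distance to all candidates was 0.236 to 0.453, depending on the member. Among the members themselves Casp1 and Casp4 were the closest, at 0.15, followed by Casp4 and Gsdme at 0.159 and Padi4 and Gsdmd at 0.164. With 6 libraries that share depth and pairs, these distances are a description.

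Other genes of the same pathways were read from 7 lists holding 119 genes. Of 12 tested sensors and adaptors beside the members none was called, at a median log2 fold change of 0.13. At an unadjusted p under 0.05 by edgeR the count was 2, where 6.58% of all genes passed. Nlrp1a, a sensor that is freed by proteolysis, had 14.3, 11.8 and 15.0 CPM in depolarized cells, against 7.19, 5.23 and 9.59 CPM in polarized cells. Its groups did not overlap, as for 7.28% of all genes in this direction, and it was named for its low p within the list. Its log2 fold change of 0.86 had an adjusted p of 0.226 by edgeR. Mefv, which encodes the sensor pyrin, averaged 16.9 ± 3.70 CPM in depolarized and 10.8 ± 2.62 CPM in polarized cells (SD, n = 3 each), with an adjusted p of 0.675 by edgeR. Card19 and Pstpip1, with the highest CPM of the list, had log2 fold changes of 0.10 and -0.01.

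Of 20 tested genes that control caspase-1 and caspase-11, none was called. At an unadjusted p under 0.05 by edgeR the count was 4, where 6.58% of all genes passed. Of these, Serpinb1a and Irf8 had fitted values below 0. Gbp2 and Gbp3, named after their values were seen, had fitted values above 0. Serpinb1a, an inhibitor of neutrophil serine proteases and of inflammatory caspases, averaged 249 ± 88.4 CPM in depolarized and 417 ± 36.8 CPM in polarized cells (SD, n = 3 each). Its log2 fold change was -0.88, with an adjusted p of 0.180 by edgeR. Irf8, a transcription factor of myeloid cells, was low throughout, at 0.275 ± 0.173 CPM in depolarized and 1.14 ± 0.0978 CPM in polarized cells (SD, n = 3 each; adjusted p = 0.212 by edgeR). Txnip, a thioredoxin-binding protein reported to bind NLRP3, averaged 933 ± 97.3 CPM in depolarized and 719 ± 19.5 CPM in polarized cells (SD, n = 3 each). Those groups did not overlap, as for 7.28% of all genes in this direction, and the adjusted p was 0.892 by edgeR.

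Of 6 other caspases tested none was called, at a median of 0.15. Casp9, the initiator caspase of the mitochondrial route, had 41.4, 43.8 and 43.8 CPM in depolarized cells, against 32.9, 29.1 and 25.3 CPM in polarized cells. The groups lay apart, as for 7.28% of all genes in this direction. The log2 fold change of 0.50 had an unadjusted p of 0.0136 and an adjusted p of 0.499 by edgeR.

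Of 18 further genes of the gasdermin family, pore repair and membrane rupture, 9 were tested and none was called, and 7 had 3 counts or fewer in all libraries together. Ninj1, which ruptures the plasma membrane late in lytic death, had 169.7, 267 and 271 CPM in depolarized cells, against 133, 184 and 166 CPM in polarized cells. Each depolarized library was above its partner, by 0.42, 0.49 and 0.48 on the TMM-scaled log2 scale and by 0.35, 0.53 and 0.71 on the deposited CPM, although the groups overlapped. The fitted value of 0.46 had an unadjusted p of 0.0155 and an adjusted p of 0.520 by edgeR. The membrane repair genes Chmp2a and Tsg101 had log2 fold changes of -0.06 and -0.40, with an adjusted p of 1 for Chmp2a and 0.789 for Tsg101 by edgeR.

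Among 6 tested substrates and antagonists of inflammasomes none was called. Il1b, which encodes the cytokine that caspase-1 matures, had 1004, 953 and 1086 CPM in depolarized cells, against 762, 588 and 601 CPM in polarized cells. The groups did not overlap, as for 7.28% of all genes in this direction. Its log2 fold change was 0.58 (SE 0.18), with an unadjusted p of 0.0043 and an adjusted p of 0.317 by edgeR. Il1rn, the receptor antagonist, and Il1r2, the decoy receptor, had log2 fold changes of 0.09 and 0.20 and an adjusted p of 1 each. Il1b is also on the list of mature-stage markers, of which none of 10 was called.

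The NET list gave the sole calls. Of 36 tested genes 5 were called lower in depolarized cells, none higher, and the median was -0.08, while 0.241% of all genes were called lower. The list was chosen with earlier results of these data known, so the number of calls is a description and no sign of enrichment. The 5 were the granule protease genes Elane, Prtn3 and Ctsg, the myeloperoxidase gene Mpo and the cathelicidin gene Camp. Elane had 0.147, 0.104 and 5.09 CPM in depolarized cells, against 13.1, 39.2 and 109 CPM in polarized cells. Its log2 fold change was -5.66 (SE 0.41, adjusted p = 8.32e-07 by edgeR), that of Mpo -5.30 (SE 0.29, adjusted p = 1.96e-08) and that of Camp -1.46 (SE 0.25, adjusted p = 0.0144). Prtn3 and Ctsg had log2 fold changes of -3.55 and -5.54. Mpo, Elane, Prtn3 and Ctsg are themselves on the early-stage marker list given above, and Camp is on the neutrophil list, so these calls and the marker difference are the same values. S100a8 and S100a9, the subunits of calprotectin and the genes with the highest CPM of the list, had log2 fold changes of -0.31 and -0.30 and an adjusted p of 0.966 each. DESeq2 did not call Camp, and edgeR with robust dispersions did not call Elane. With the pairing term left out 0 list genes were called by edgeR. With pair C left out, 22 genes of the 7 lists were called, 12 higher and 10 lower, among them Nlrp1a, Mefv, Serpinb1a, Irf8, Txnip, Casp9, Ninj1, Il1b, Il1rn and Il1r2 and all 5 above, in a fit that called 10.1% of all genes.

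**Figure D4:**
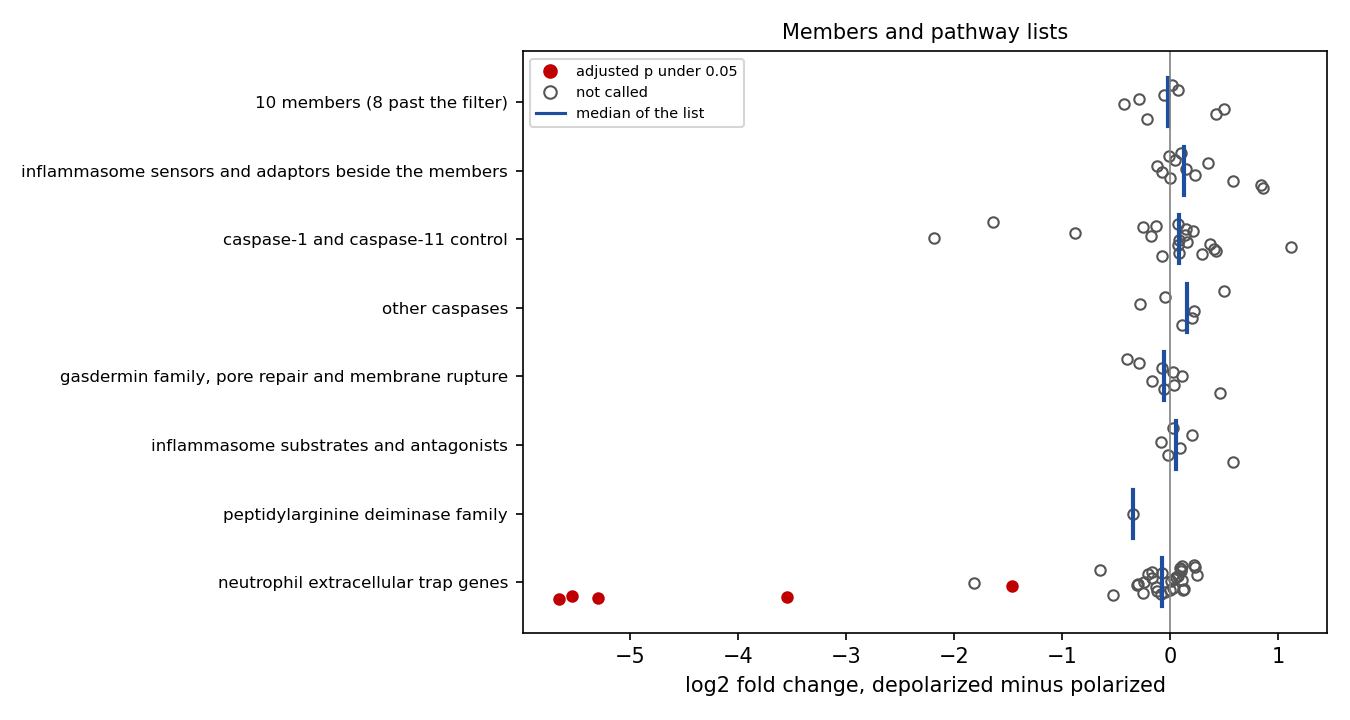
Log2 fold change, depolarized minus polarized, of the 8 tested members (top) and of the tested genes in 7 pathway lists, with filled dots for an adjusted p under 0.05 by edgeR and blue lines for medians. The 5 filled dots are all in the NET list, from -5.66 for Elane to -1.46 for Camp, and the members lie between -0.43 and 0.50.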

How the data were processed

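The authors deposited 1 table per library with counts, CPM and RPKM for 41388 genes. Per the submitters' processing notes, bcl2fastq, STAR 2.0.4b, Subread and featureCounts 1.45 were used with GRCm38. The labels state neither strand setting nor annotation release. Deposited counts are whole numbers per gene. Deposited CPM values are those counts scaled to the library total. Deposited RPKM values are that CPM per kilobase of listed length.

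Symbols were matched for 40254 genes. The other 1134 held 0.131% of counts. Groups came from the response label. Counts were tested in R 4.3.3 with edgeR 4.0.16 (filterByExpr by group, minimum count 10, TMM, quasi-likelihood F test, replicate code as a block). P-values were Benjamini-Hochberg adjusted over 9971 genes, and genes were called under 0.05. Fold changes are depolarized minus polarized, and an approximate SE was taken from the fold change and its F statistic. The code was tested on simulated data. Pairing rests on the design text, which speaks of biological replicate pairs. Deviations from group means correlated at r = 0.0751, 0.27 and 0.0326 in pairs A, B and C, across genes, which are not independent replicates. Libraries of 1 group differed beyond sampling noise (chi-square over degrees of freedom 29.1 to 100). A run label in the titles is 1 in the depolarized library of pair B and 2 in the others, so a term for it would take pair B out of the comparison, as in the fit without that pair. DESeq2 1.42.0, other scaling and filters, no block, and leaving out each pair were tried.

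All members were named. From each list, called genes, the 2 with the lowest p and the 2 with the highest CPM were named, and for each member the gene with the nearest pattern. Some genes this rule names are not reported here. Members and lists were chosen with earlier results of these data known. Exons and shared 50-base stretches were read from GENCODE M21, and promoters from RefSeq (9 of 10 members matched). The list genes Gbp5 and Il36g were not analysed here.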

Additional observations from a re-analysis of the deposited data

How the results depend on the processing

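Of 72 member values (8 members, 9 alternatives) 68 kept their direction and their side of the threshold. The exceptions were Nlrp3, called without pair C at 0.44 by edgeR, and the signs of Casp4 and Gsdme, whose log2 fold changes ran from -0.18 to 0.07 and from -0.06 to 0.17 when each pair was left out in turn. The number of members called was 0 to 1 when each pair was left out and 0 under every other alternative run. Over all genes 32 were called with the replicate block, 0 with no replicate block, 146 with no filter on low counts, 13 with the stricter filter (mean CPM of at least 5), and 45 to 1018 when a pair was left out: 99 without pair A, 45 without pair B and 1018 without pair C. Genes called in the pathway lists numbered 5 with the block, 0 without it, 3 with the stricter filter, 4 with DESeq2 (not Camp), 4 with robust edgeR (not Elane), and 5 to 22 when a pair was left out, with 22 without pair C. Prtn3 and Ctsg lay below the mean CPM of the stricter filter, so they were left out of that fit. The cause of the other differences was not tested. RLE scaling, robust edgeR and DESeq2 called 0 members. Differences within pairs kept their sign on the deposited CPM in all 8 members, an alternative chosen after seeing the data. Padi2 and Nlrc4 had too few counts to test, with 2 and 6 counts in all. For Aim2 the library with the fewest counts in each group had a counting error of 8.03% to 11.5%.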

Other observations

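The NET list also holds subunits of the phagocyte NADPH oxidase and genes of the nuclear envelope, described here after their values were seen. Cybb, the catalytic oxidase subunit, averaged 870.4 CPM in depolarized and 1181 CPM in polarized cells, with a log2 fold change of -0.53, an unadjusted p of 0.0115 and an adjusted p of 0.456 by edgeR. Cyba, Ncf1 and Ncf4, partners of Cybb, had log2 fold changes of -0.08, -0.25 and -0.12, none of them called. Of the nuclear envelope genes, Lbr had a log2 fold change of 0.13 and Lmnb1 one of 0.12, neither called. Lmna and Lmnb2 did not pass the filter. Lmna had 34 counts in depolarized and 11 counts in polarized cells, and Lmnb2 had 8 and 14.

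Of the other members with a promoter window, Casp4 held 3 NF-κB matches, overlapping in part, Casp1 and Pycard held 1 PU.1 match each, and Pycard and Nlrc4 held 1 C/EBP match each. Gsdme held none of the motifs and 24 CG dinucleotides. The RefSeq start of Gsdme lies inside the listed gene, as for Aim2. Casp4 had a second RefSeq window, and the one nearest the listed gene start was used. In the gasdermin family, Gsdma, Gsdma2, Gsdma3, Gsdmc, Gsdmc2 and Gsdmc3 had 0 counts in all 6 libraries, and Gsdmc4 had 14 counts in depolarized and 17 counts in polarized cells. P2rx7, which encodes the ATP-gated channel upstream of NLRP3, had 5 counts in depolarized and 16 counts in polarized cells. It did not pass the filter, and its groups overlapped. Pair C ran the other way, at 0.118 CPM in depolarized and 0.051 CPM in polarized cells. Panx1, on the same list, had 31 counts in depolarized and 19 counts in polarized cells and was not called.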
